A study of Homo sapiens with 101 samples.

Results

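MAP2K2 was knocked down with a short hairpin RNA in SW480 cells, an established human colorectal cancer line grown from a primary tumour. The arrays were chosen by their titles: 6 arrays of the MAP2K2 knockdown, 6 of SW480 cells with an empty vector (control.ev) and 6 of SW480 cells with a non-target hairpin (control.nontarget). These 18 are part of a series of just over 100 arrays on which several genes of the RAS pathway were knocked down in SW480 and in SW620, its partner line, grown from a later lymph node metastasis. Per the labels, the responding genes were meant for testing a computed gene interaction network.

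The empty vector is called pLKO in the labels of replicate 1 and of replicates 3 to 6, and untransduced cells are not part of this comparison. The MAP2K2 hairpin has the code C3 on replicate 1 and on replicates 3 to 6, and no code on replicate 2, so the experiment rests on 1 hairpin as far as the labels go. Its sequence was not used here. Total RNA was taken with Trizol and hybridised to Affymetrix arrays, 1 sample per array. No time after transduction and no selection step is given in the sources used here. The labels number the arrays as biological replicates, but those of replicates 3 to 6 end with the codes A1, A2, B1 or B2, and no label says whether these came from separate cultures. The p-values then measure only the spread between these samples, which may be technical.

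MAP2K2 encodes MEK2, which together with MEK1 (from MAP2K1) forms the dual-specificity kinase step of the RAS, RAF, MEK and ERK cascade. Both MEK kinases phosphorylate the ERK kinases, which in turn switch on immediate early genes, drive D-type cyclins and induce their own inhibitors, the dual-specificity phosphatases, Sprouty and SPRED proteins. In colorectal cancer, where RAS genes are often mutated, this pathway is a main growth signal.

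The titles of the arrays are written in 3 styles, biorep1, biorep2 and biorep.3 to biorep.6, here called rounds 1, 2 and 3. Rounds 1 and 2 hold 1 knockdown array and 2 control arrays each, and round 3 holds 4 knockdown and 8 control arrays. Every change below is a log2 difference from the vector controls within rounds, ± its standard error. It was tested with limma, with Benjamini-Hochberg adjustment over 19775 genes, and a gene rose or fell where the adjusted p is under 0.05. The main changes are given with the 18 arrays and again with 17, without the knockdown array of replicate 1. Single genes of the comparisons with MAP2K1 and SW620 are given with all arrays, and without replicate 1 where that changes a call or moves a called value by more than 1.5 times. Array medians lay between 5.06 and 5.23 (log2). The 3 prime minus 5 prime difference of ACTB, which grows as RNA is degraded, was 0.40 to 0.74 in rounds 1 and 2. In round 3 it was 2.51 to 3.04 on the knockdown arrays and 1.88 to 2.68 on the controls. Its part in the results was not tested. Arrays of bulk cells cannot tell fewer cells of a type from less RNA per cell. Of the defining epithelial markers, EPCAM lay between 10.66 and 11.80 and KRT18 between 13.50 and 14.01 on the 18 arrays. KRT8 was at 11.65 to 13.03 and was lower in the knockdown with 18 arrays (-0.25, limma adjusted p = 0.027) but not with 17 (limma adjusted p = 0.066). CDH1, which encodes E-cadherin, ranged from 4.92 to 8.25, with 1.92 above the controls on knockdown replicate 1 and -0.86 on replicate 2. LGR5 and VIL1 were 4.26 and 2.17 above them on replicate 1, and LGR5 rose with 17 arrays (0.36, limma adjusted p = 0.0088) but not with 18 (1.01, limma adjusted p = 0.092). KRT20, a marker of differentiated colon cells, was near the bottom of the scale (3.22 to 3.95). None of the 4 leukocyte markers and none of the 4 endothelial markers measured was over 8 on any array, and 1 of 6 fibroblast markers was, COL1A1 at up to 8.46. Of 3 neuron markers 1 was, SYT1 at 7.28 to 9.87, which was 2.08 above the controls on knockdown replicate 1. The mean of these 3 was 6.39 to 7.29 on the controls and 6.41 to 7.55 on the knockdown arrays. Of the leukocyte markers, LYZ, which encodes lysozyme, was 0.89 higher in the knockdown (17 arrays: 1.08, limma adjusted p = 7.5e-06), while PTPRC, the leukocyte common antigen, did not pass the test (0.13). The mean of the 4 leukocyte markers was 4.70 to 5.45 on the controls and 5.10 to 5.47 on the knockdown arrays.

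The knockdown array of replicate 1, labelled SW480, held genes of SW620. Its position was read over 200 genes, the 100 that were highest in SW620 and the 100 that were highest in SW480 when the vector controls of the lines were compared. On a scale where SW480 controls are 0% and SW620 controls are 100%, this array stood at 70.9%. It carried at least a 2-fold rise in 75 of the 100 SW620 genes and at least a 2-fold fall in 84 of the 100 SW480 genes. The knockdown array of replicate 2 stood at 0.952%, from -4.47% over the SW620 genes and 6.40% over the SW480 genes. Those of replicates 3 to 6 stood at 4.62% to 5.23%, and the 12 control arrays between -1.37% and 1.37%. Replicates 3 to 6 were thus above their own controls, and this came from the SW620 genes, of which 13 to 16 were up at least 2-fold, while the position over the SW480 genes was 0.183% to 1.22%. In the MAP2K1 knockdown of SW480, replicates 3 to 6 stood higher, at 7.03% to 7.2%. Of the SW620 genes, 22 to 28 were up at least 2-fold there. What put SW620 genes on these arrays was not tested.

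**Figure D1:**
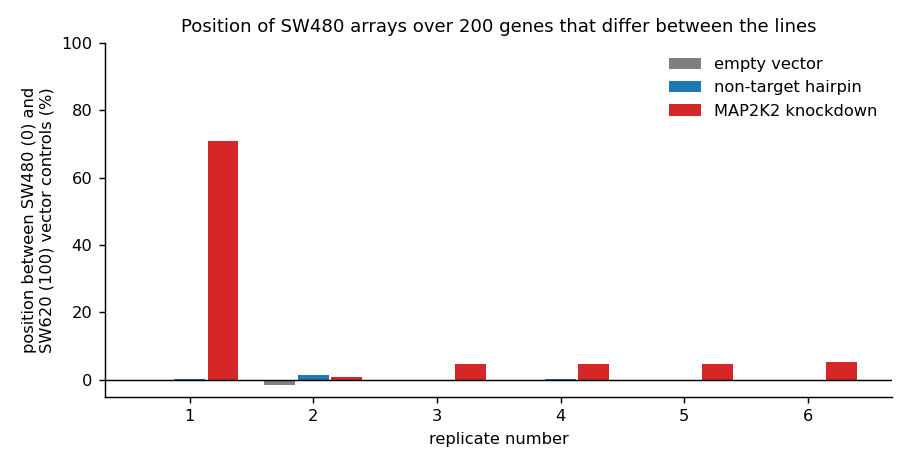
Position of each of the 18 SW480 arrays between the vector controls of SW480 (0%) and of SW620 (100%), in percent over 200 genes that separate the lines (y axis), against the replicate number (x axis); bars are single arrays, coloured by group. The knockdown array of replicate 1 stands at 70.9%, and every other knockdown array is at or under 5.23%.

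The changes differed in sign between rounds for many genes. The 4 knockdown arrays of round 3 had an SD of 0.0833 for the median gene, and many of their changes had the other sign on the array of round 2. The rounds share no arrays. With round 3 alone, 3507 genes rose and 4187 fell. Of these 7694 genes, 3077 (40%) had the same sign on the round 2 array, where the share over all 19775 genes was 44.4%. Of the 69 genes that rose at least 2-fold in round 3, 21 (30.4%) were above 0 in round 2, and of the 48 that fell at least 2-fold, 13 (27.1%) were below 0 there. Past 2-fold in both rounds were 19 genes, 17 of them in opposite directions. The 2 that moved the same way were MAP2K2 and DACH1. Round 3 holds 4 of the 6 knockdown arrays, and round 2 holds 1, so the difference between these rounds has no test. What sets the rounds apart was not tested.

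The target fell in all rounds. On its brightest probe set the level of MAP2K2 was 6.86, 7.58, 7.25, 7.13, 7.13 and 7.07 on knockdown replicates 1 to 6. The controls were at 9.86 and 9.84 in round 1, at 9.38 and 9.36 in round 2, and between 8.75 and 8.96 in round 3. Each knockdown array was below every control array, of its own round and of the others, so the groups did not overlap. MAP2K2 fell by 1.89 ± 0.13 (limma adjusted p = 3.2e-07), to 26.9% of the controls. Without the knockdown array of replicate 1 the change was -1.67 ± 0.05 (limma adjusted p = 7.9e-13), or 31.4% of the controls. The fall was largest in round 1, where 12.6% remained, against 29.0% in round 2 and 32.0% in round 3.

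A second probe set of MAP2K2 gave -1.45 ± 0.18 with 18 arrays and -1.15 ± 0.09 with 17 (limma adjusted p = 2.5e-04 and 1.4e-06). On the third the levels were low in all groups, 4.67 to 4.89 on the knockdown arrays and 4.39 to 5.26 on the controls, and the difference was 0.02 ± 0.08 (limma adjusted p = 0.91). 

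MAP2K1, the paralog, did not fall. Its level on knockdown replicates 1 to 6 was 9.92, 8.51, 9.42, 9.41, 9.41 and 9.42, against 9.0 and 9.01, 8.44 and 8.63, and 9.12 to 9.31 on the controls of the 3 rounds. The array of replicate 1 stood highest, 5 of 6 knockdown arrays lay above all controls of their round, and the array of replicate 2 lay between its controls. With 18 arrays the gene rose by 0.28 ± 0.09 (limma adjusted p = 0.044). The call ended without the replicate 1 knockdown array (0.15 ± 0.05, limma adjusted p = 0.067), and it also ended in 24 of 32 alternative settings.

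**Figure D2:**
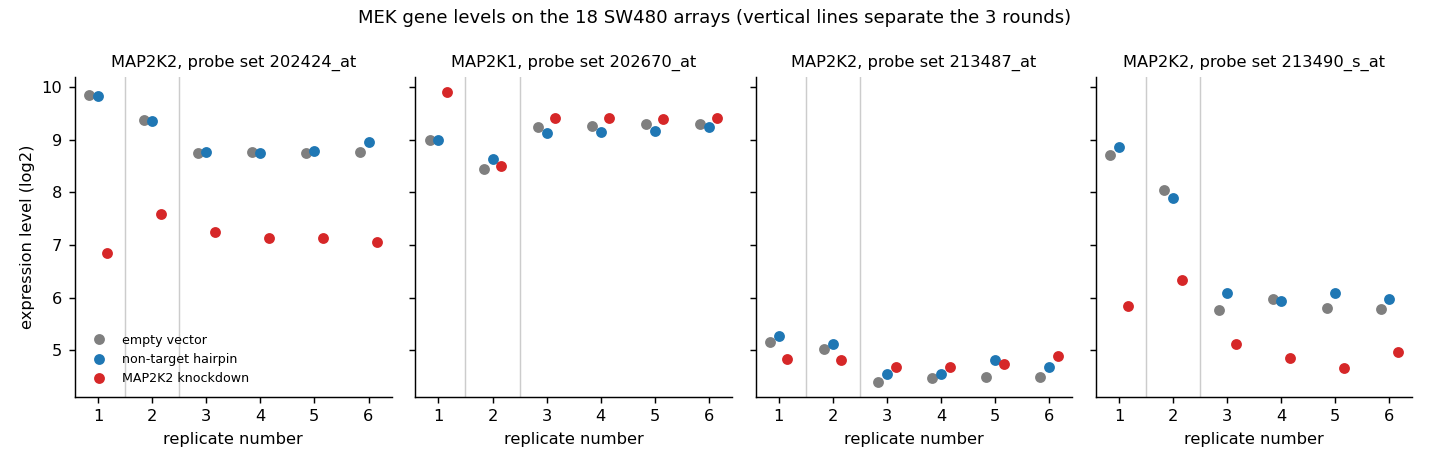
Expression level (log2, y axis) of the 3 probe sets of MAP2K2 and of MAP2K1 on the 18 SW480 arrays by replicate number (x axis), 1 point per array, with grey for empty vector, blue for non-target hairpin and red for the MAP2K2 knockdown. The knockdown arrays are below all controls on the first probe set and below the controls of their round on the last, while the third panel is low in every group and MAP2K1 differs by under 1.

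With 18 arrays, 1063 genes rose (5.38% of those tested) and 1205 fell (6.09%). With 17, 1269 rose (6.42%) and 1476 fell (7.46%). Both fits called 1856 genes, which is 81.8% of the first set and 67.6% of the second, and 1271 of these kept one sign in all 3 rounds. Changes were mostly small: 62 genes were called at 2-fold or more with 18 arrays, 40 with 17 and 34 with both. Over all genes the median change was close to 0 (0.0011 and -0.0017). With the empty vector alone as control 591 rose and 916 fell, and with the non-target hairpin alone 731 rose and 561 fell. Leaving out the knockdown array of replicate 2 raised the counts to 1618 and 1934. When the arrays of round 3 were averaged in pairs by name ending, 2 genes rose and 4 fell, or 19 each way without the replicate 1 knockdown array.

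The 12 largest rises have the same sign in every round by the rule that chose them. Among them DACH1, a transcriptional repressor of the Dachshund family, had the most even rise. Its level was 6.65, 5.52, 6.25, 6.02, 6.27 and 6.14 on knockdown replicates 1 to 6, against 4.31 and 4.99, 4.72 and 4.09, and 4.44 to 5.16 on the controls of the 3 rounds. No knockdown array overlapped with any control. DACH1 rose 2.6-fold with 18 arrays (1.38 ± 0.13, limma adjusted p = 1.8e-05) and 2.39-fold with 17, and it kept its call with arrays averaged in pairs (limma adjusted p = 0.021).

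TNC, which encodes the matrix glycoprotein tenascin-C, was at 7.96, 4.91, 7.81, 7.69, 7.82 and 7.76, against 4.01 and 4.51, 4.30 and 4.07, and 5.31 to 6.37 on the controls. It was above all controls of its round on 6 of 6 arrays (2.00 ± 0.25 and 1.66 ± 0.18, limma adjusted p = 1.8e-04 and 2.5e-05). PCDH19, a protocadherin of cell adhesion, was at 9.23 on replicate 1, 4.81 on replicate 2 and 6.97 to 7.20 on replicates 3 to 6, against 4.51 to 5.00 on all 12 controls. On replicate 2 it was 0.12 above the mean of its controls, so its 2.26 ± 0.33 (1.79 ± 0.22 with 17 arrays) rests on rounds 1 and 3.

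EREG encodes epiregulin, a ligand of the EGF receptor that ERK signalling is known to induce. Its level was 8.32, 3.84, 7.01, 6.99, 6.98 and 6.94, against 3.91 and 3.82, 3.41 and 3.27, and 4.72 to 6.65 on the controls. EREG rose by 1.81 ± 0.35 with 18 arrays and by 1.28 ± 0.21 with 17 (limma adjusted p = 0.0036 and 7.1e-04), and 6 of 6 arrays lay above the controls of their round. The controls of round 3 differed among themselves here, 5.62 to 6.65 with the empty vector and 4.72 to 4.89 with the non-target hairpin. SOX2, a transcription factor of stem cells, rose by 1.32 ± 0.27 and 1.08 ± 0.25 (limma adjusted p = 0.0046 and 0.0090). Its 2 controls of round 1 stood far apart, at 4.17 with the empty vector and 6.85 with the non-target hairpin.

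Of the other 7 genes among the 12 largest rises, GPX2 and CLRN3 had by far their highest values on replicate 1. GPX2, the glutathione peroxidase of the gut epithelium, changed by 5.55, 0.57 and 1.04 in rounds 1, 2 and 3, and CLRN3, a membrane protein of the clarin family, by 5.72, 0.55 and 0.96. Both still rose with 17 arrays (0.95 ± 0.09 and 0.88 ± 0.09, limma adjusted p = 5.0e-06 and 7.5e-06). ROBO1, a receptor for SLIT guidance proteins, went from 1.21 with 18 arrays to 0.58 with 17, and DNAJC12, a co-chaperone, from 2.00 to 1.54. SSTR1, a somatostatin receptor, went the other way, from 1.30 to 1.44, with 0.60, 0.01 and 1.80 in the 3 rounds. DKK4, a secreted Wnt inhibitor, rose by 1.21 and 0.77, and ASPRV1, an aspartic protease known from skin, by 1.20 and 0.84. Of these 12 genes, 11 are also higher in the vector controls of SW620 than of SW480, and 5 are among the 100 genes that mark SW620. The genes were ranked by the change with 18 arrays, which include the replicate 1 array with its SW620 genes. The ranking thus favours genes high in SW620, and the share over all genes was not taken.

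The 12 largest falls began with the target. AK5, an adenylate kinase, was at 4.72, 5.36, 5.00, 4.86, 5.12 and 5.08 on knockdown replicates 1 to 6. Its controls were at 6.21 and 6.72, 5.86 and 5.63, and 6.20 to 7.20, so no knockdown array overlapped with a control of its round or of another. AK5 fell by 1.42 ± 0.14 with 18 arrays and by 1.36 ± 0.16 with 17 (limma adjusted p = 1.9e-05 and 4.3e-05).

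IDH1, the cytosolic isocitrate dehydrogenase that supplies NADPH, was at 8.82, 9.21, 8.68, 8.70, 8.59 and 8.74. Its controls were at 10.39 and 10.37, 9.99 and 9.56, and 9.50 to 10.02. Each knockdown array was below all 12 controls. IDH1 fell by 1.07 ± 0.11 and by 0.97 ± 0.10 (limma adjusted p = 1.8e-05 and 1.4e-05). RLBP1, a retinaldehyde-binding protein, was at 5.70, 6.46, 6.72, 6.74, 6.41 and 6.52 against 7.04 to 7.81 over all controls, again without overlap. RLBP1 changed by -1.11 ± 0.08 and -1.03 ± 0.07 (limma adjusted p = 8.2e-07 and 3.0e-07), and it was called in all 32 alternative settings.

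LOXL2, an enzyme that crosslinks collagen and elastin, fell by 1.01 ± 0.13 with 18 arrays and by 0.88 ± 0.12 with 17 (limma adjusted p = 1.5e-04 and 1.8e-04), more in rounds 1 and 2 (-1.64 and -1.65) than in round 3 (-0.69). DKK3, a secreted protein of the Dickkopf family, fell mainly in rounds 1 and 2 as well (-3.40, -2.08 and -0.44), and its call ended without the replicate 2 knockdown array (-1.04, limma adjusted p = 0.059). SUMF1, which activates the sulfatases, fell in each round (-2.38, -0.57 and -0.89). HPGD, the enzyme that breaks down prostaglandins, was at -1.04 with 18 arrays and -0.57 with 17. FABP3, a fatty acid binding protein, was at -0.98, -0.07 and -1.36 in the 3 rounds, PAQR5, a membrane progestin receptor, at -0.57, -0.68 and -1.36, and CCDC110 at -0.56, -0.07 and -1.65. KANK4 completed the list at -1.02 and -0.81 with 18 and 17 arrays.

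**Figure D3:**
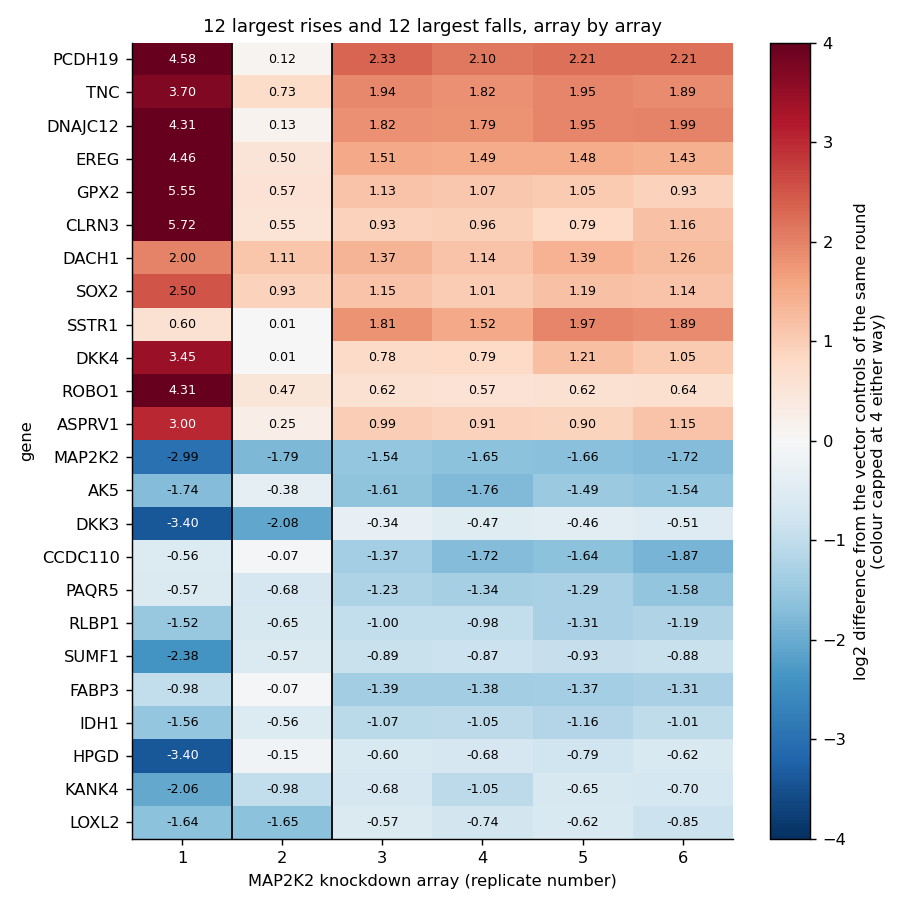
Log2 difference of each MAP2K2 knockdown array (columns, replicates 1 to 6) from the mean of the vector controls of its round for the 12 largest rises and the 12 largest falls (rows), with the value printed in each cell and colours capped at 4 either way. Replicate 1 holds the most extreme values, up to 5.72 for CLRN3, PCDH19, SSTR1 and DKK4 are at 0.12 or less on replicate 2, and replicates 3 to 6 are alike.

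For the pathway of the target, 25 gene lists held 564 distinct genes, 517 of them measured. They were chosen with results of these data known, and a count is read against the shares of all genes called. These are 5.38% higher and 6.09% lower with 18 arrays, and 6.42% and 7.46% with 17. The core cascade hardly moved apart from the target. Of 11 measured RAS, RAF, MEK and ERK genes, MAP2K1 rose and MAP2K2 fell with 18 arrays, and with 17 only MAP2K2 passed. The median of the list was -0.01 and 0.05.

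Of 20 scaffolds and upstream regulators of the cascade, activators and inhibitors alike, 1 rose and 4 fell with 18 arrays and again with 17. PEA15, which keeps ERK in the cytoplasm, fell by 0.57 ± 0.09 and by 0.45 ± 0.07 (limma adjusted p = 6.1e-04 and 2.4e-04). Its level was 8.68, 9.40, 9.18, 9.20, 9.12 and 9.14 on knockdown replicates 1 to 6 against 9.54 to 9.96 on all 12 controls, so the groups did not overlap. RASAL1, a RAS GTPase-activating protein, changed by -0.35 and -0.40, NF1, another such protein, by -0.24 and -0.25, and LAMTOR2, a late endosomal scaffold subunit, by -0.17 and -0.15. PTPN11, the SHP2 phosphatase that passes receptor signals to RAS, rose by 0.25 ± 0.05 and 0.23 ± 0.05 (limma adjusted p = 0.0028 and 0.0027).

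The ERK feedback inhibitors, whose transcription follows ERK activity, did not fall as a group in either fit. Of 17 measured, 3 rose and none fell with 18 arrays, and 3 rose and 1 fell (DUSP2, -0.24) with 17. The median was 0.06 and 0.02, and by round it was 0.09, -0.23 and 0.08, with 9, 5 and 10 of 17 genes above 0. Most were thus not above their controls in round 2. DUSP4, a nuclear ERK phosphatase, was at 8.18 on replicate 1, 5.93 on replicate 2 and 8.21 to 8.91 on replicates 3 to 6. Its controls were at 6.99 and 6.99, 5.84 and 6.00, and 7.16 to 7.71. DUSP4 rose by 0.92 ± 0.13 with 18 arrays and 0.86 ± 0.14 with 17 (limma adjusted p = 3.9e-04 and 8.7e-04), and on replicate 2 it lay between the controls. DUSP5, another ERK phosphatase, rose by 0.52 ± 0.15 and 0.64 ± 0.15, yet it was at -0.04 and -0.32 in rounds 1 and 2. SPRY2, a Sprouty protein, rose by 0.21 ± 0.06 and 0.18 ± 0.06. The calls of DUSP5 and SPRY2 ended in 10 and 9 of 32 alternative settings.

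ERK output genes had few calls. Of 28 measured, 3 rose and none fell with 18 arrays, and 3 rose and 1 fell with 17, with medians of 0.04 and 0.08. By round the median was -0.11, -0.16 and 0.05. The 3 that rose were EREG, EPHA2, an ephrin receptor (0.30 ± 0.08 and 0.30 ± 0.09), and PLAU, the urokinase protease (0.39 ± 0.11 and 0.43 ± 0.12). The calls of EPHA2 and PLAU ended in 9 and 11 of 32 alternative settings. The 1 that fell was VEGFA (-0.38), which was 1.17 above its controls on replicate 1. Of 24 immediate early genes, 2 rose and 1 fell with 18 arrays. With 17, 2 rose and 5 fell, which is above the 7.46% of all genes that fell. JUND changed by -0.34 and -0.42, JUNB by 0.25 and 0.27 and NR4A2, an orphan nuclear receptor, by 0.59 and 0.36. The falls that appeared only with 17 arrays were in JUN (-0.49), EGR1 (-0.38), EGR4 (-0.38) and MCL1 (-0.20).

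Receptors and parallel cascades changed little. Of 23 EGF ligands and receptor tyrosine kinases, 1 rose and 2 fell with 18 arrays, and 1 rose and 4 fell with 17. ERBB2 changed by -0.35 ± 0.08 and -0.28 ± 0.07, EPHB4 by -0.38 ± 0.07 and -0.30 ± 0.05, and EGF by 0.20 ± 0.05 and 0.21 ± 0.06. EGF was near the bottom of the scale on all 18 arrays (3.35 to 3.83), and its call ended in 9 of 31 alternative settings. ERBB3 fell by 0.64 with 17 arrays. Of 21 genes of the other MAP kinase cascades, 2 rose and 1 fell with 18 arrays and 2 rose and 2 fell with 17. MAPK6, the atypical kinase ERK3, rose by 0.51 ± 0.06 and 0.44 ± 0.04 (limma adjusted p = 6.3e-05 and 8.3e-06) and was above all controls of its round on 6 of 6 arrays. MAP2K6, a p38 activator, rose by 0.54 and 0.31, and MAP2K4, a JNK activator, fell by 0.24 in both fits.

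Proliferation genes were slightly higher once the replicate 1 knockdown array was left out. Of 28 G1/S and DNA replication genes, 6 rose and none fell with 18 arrays, and 14 rose and none fell with 17, where 6.42% of all genes rose. Their median was 0.11 and 0.19, and by round it was -0.26, 0.27 and 0.15. Of 28 G2/M and mitosis genes, 3 rose with 18 arrays and 10 with 17, and none fell. Their median by round was -0.92, 0.24 and 0.15, with 1, 26 and 25 of 28 genes above 0. Rounds 2 and 3 thus had one direction and round 1 the other. E2F7, an atypical E2F repressor, rose in all rounds (0.64 ± 0.07 and 0.58 ± 0.06, limma adjusted p = 2.3e-05 and 1.4e-05). PCNA, the polymerase clamp, rose by 0.26 and 0.27, UHRF1 by 0.38 and 0.57, and CCNE2, a cyclin of S phase entry, by 0.58 and 0.76. KIF11, a spindle motor, rose by 0.26 and 0.36 and CDK1 by 0.23 and 0.29, but these calls ended in 19 and 13 of 32 alternative settings.

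Among 15 D-type cyclins, their kinases, CDK inhibitors and RB family genes, 2 rose with 18 arrays and 5 with 17, and none fell. CDK6, a partner of D-type cyclins, was at 10.08, 8.85, 10.24, 10.23, 10.24 and 10.15 on knockdown replicates 1 to 6. Its controls were at 9.02 and 7.75, 8.90 and 8.31, and 8.90 to 9.46. On replicate 2 it lay between its controls, and on the other 5 arrays above them. CDK6 rose by 0.99 ± 0.12 and 0.85 ± 0.11 (limma adjusted p = 1.3e-04 and 8.1e-05). CDKN1B, which encodes the CDK inhibitor p27, rose by 0.41 ± 0.10 and 0.49 ± 0.09. CDKN1A, which encodes p21, rose with 17 arrays only (0.49, limma adjusted p = 1.7e-04), and was at -1.54 on replicate 1.

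Of 22 BCL2 family and death signalling genes, 2 rose and 2 fell with 18 arrays, and 1 rose and 3 fell with 17. BCL2L11 encodes BIM, a killer protein that ERK is known to hold down. Its level was 8.11, 7.53, 8.90, 8.95, 8.83 and 8.85 on knockdown replicates 1 to 6, against 7.27 and 7.66, 7.29 and 7.39, and 8.11 to 8.31 on the controls. It was above all controls of its round on 6 of 6 arrays and rose by 0.57 ± 0.07 with 18 arrays and 0.56 ± 0.07 with 17 (limma adjusted p = 1.3e-04 and 1.4e-04). BOK, an effector of the family, changed by -0.63 and -0.34, and BCL2L2, a survival protein, by -0.23 and -0.25.

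Lipid synthesis genes leaned down in round 3. Of 19 cholesterol and fatty acid synthesis genes, none rose, 5 fell with 18 arrays and 3 fell with 17. The median was -0.20 and -0.15, and by round it was -0.43, 0.29 and -0.29, so round 2 had the opposite sign. In round 3 none of the 19 genes was above 0. ACACA, acetyl-CoA carboxylase, fell in every round. It was at 8.26, 8.27, 8.56, 8.58, 8.56 and 8.49 against 8.69 to 9.12 on all 12 controls, without overlap (-0.49 ± 0.05 and -0.46 ± 0.05, limma adjusted p = 2.7e-05 and 1.8e-05). SCD, the stearoyl-CoA desaturase, changed by -0.66 ± 0.09 and -0.73 ± 0.08, SREBF1, the regulator of fatty acid synthesis, by -0.38 and -0.34, and FASN, fatty acid synthase, by -0.34 and -0.33, the last with a call only with 18 arrays.

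Of 23 amino acid response genes, 1 rose and 4 fell with 18 arrays, and 1 rose and 5 fell with 17. STC2, a secreted glycoprotein, was at 7.65, 7.09, 8.17, 8.14, 8.17 and 8.10 on knockdown replicates 1 to 6, against 8.14 and 8.04, 7.56 and 7.61, and 8.54 to 8.77 on the controls. It was below the controls of its round on 6 of 6 arrays and changed by -0.52 ± 0.05 and -0.53 ± 0.05 (limma adjusted p = 1.8e-05 and 3.1e-06). CEBPB and ATF4, bZIP factors of this response, changed by -0.40 and -0.42, and by -0.19 and -0.25. MTHFD2, a mitochondrial folate enzyme, rose by 0.38 and 0.35. Of 18 unfolded protein response and chaperone genes, 1 rose with 18 arrays and 4 with 17, and HERPUD1 was the one that did in both (0.28 and 0.27).

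Of 29 epithelial junction and differentiation genes, 4 rose and 4 fell with 18 arrays, and 4 rose and 2 fell with 17. ESRP1, a splicing regulator of epithelial cells, fell by 0.66 ± 0.15 and by 0.65 ± 0.16. It was below the controls of rounds 2 and 3, and on replicate 1 it lay between controls at 8.31 and 6.59. OCLN, a tight junction protein, changed by -0.27 and -0.31, CLDN4, a claudin, by 0.40 and 0.52, and KLF5, a factor of gut epithelial growth, by 0.59 and 0.33. Of 30 mesenchymal regulators and matrix genes, 2 rose and 4 fell with 18 arrays, and 4 rose and 3 fell with 17. Beside TNC and LOXL2, COL4A1, a basement membrane collagen, rose by 0.71 and 0.66 although it was at -0.13 on replicate 2, and TGFB2 fell by 0.49 and by 0.36.

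Of 18 Wnt target genes, 3 rose and 1 fell with 18 arrays, and 4 rose and 1 fell with 17. PROX1, a homeobox factor, rose by 1.20 ± 0.18 and 0.99 ± 0.16 (limma adjusted p = 5.9e-04 with each) and was above all controls of its round on 6 of 6 arrays. RNF43, a ligase that removes Wnt receptors, rose by 0.64 and 0.67, with 0.04 on replicate 2. Of 18 insulin-like growth factor and serpin genes, 2 rose and 1 fell with 18 arrays, and 4 rose and 1 fell with 17. SERPINI1, neuroserpin, rose by 1.71 ± 0.25 and 1.52 ± 0.25, but was at -0.34 on replicate 2. SERPINA1, antitrypsin, fell in all rounds (-1.0, -1.60 and -0.50).

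The other lists had few calls with 18 arrays, apart from the last. Of 30 interferon response genes, 1 rose and 3 fell with 18 arrays, and none rose and 5 fell with 17. OAS1, an antiviral RNA sensor, fell by 0.48 and by 0.52. Of 22 NF-kB and chemokine genes, 1 rose and 1 fell with 18 arrays, and 1 rose and 6 fell with 17. With 17 arrays, 7.46% of all genes fell, so the falls in these 2 lists were above that share. Of 21 hypoxia and glycolysis genes, 1 rose and 1 fell, then 2 and 1, and ENO2, an enolase, changed alike in the 3 rounds (-0.38, -0.35 and -0.34). Of 14 genes of the RNA interference machinery, which a hairpin uses, TARBP2 rose (0.32 and 0.25), and DROSHA fell with 17 arrays (-0.69), from 0.93, 0.27 and -0.93 in the 3 rounds. Of 19 oxidative phosphorylation genes, SDHA and UQCRC1 fell in both fits. Of 17 ribosome biogenesis and MYC network genes, MXD1, a MYC antagonist, rose in every round (0.62 ± 0.07 and 0.54 ± 0.05), and MXI1, another one, changed by -0.49 and -0.53. A list of 6 genes picked in earlier work from these same arrays, as marking other states of SW480 cultures, had 5 rises in both fits (DACH1, PCDH19, RASSF6, DEFA5 and ROBO1), and that choice makes it no independent evidence. RASSF6 was at 2.18 and 1.62, and DEFA5 at 1.21 and 1.41, but both were below their controls on replicate 2.

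**Figure D4:**
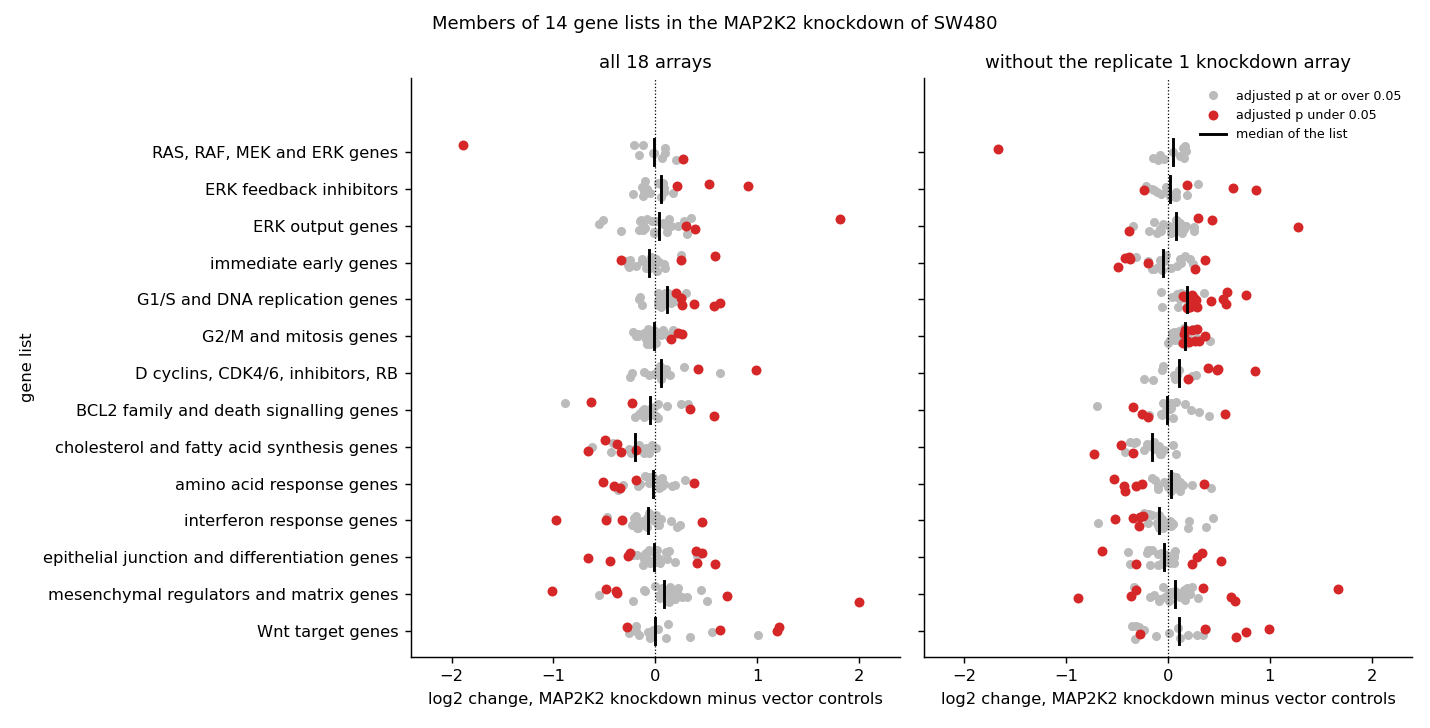
Log2 change of each measured member of 14 gene lists (rows) in the MAP2K2 knockdown of SW480 (x axis), with all 18 arrays on the left and without the replicate 1 knockdown array on the right; red points passed the limma test, grey points did not, and the black bar is the median of the list. The ERK feedback and output lists have medians between 0.02 and 0.08, and the 2 cell cycle lists move to 0.19 and 0.16 on the right.

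The MAP2K1 knockdown in SW480 asks whether loss of the other MEK gives the same pattern. The MAP2K1 knockdown shares its control arrays with the MAP2K2 knockdown, so the knockdown groups were compared directly. The hairpins hit different genes: MAP2K2 changed by -1.89 in its own knockdown and 0.07 in that of MAP2K1, and MAP2K1 by 0.28 and -1.37. In the MAP2K2 knockdown 411 genes were higher than in the MAP2K1 knockdown (2.08%) and 517 lower (2.61%). Without the replicate 1 arrays of both knockdowns these were 618 (3.13%) and 764 (3.86%). The replicate 1 array of the MAP2K1 knockdown also held SW620 genes, at 39.0% of the way between the lines. It is part of the changes of that knockdown given here. Several of the largest changes were shared. With loss of MAP2K1, PCDH19, DNAJC12, CLRN3, SSTR1 and GPX2 were at 2.91, 2.34, 2.25, 2.14 and 2.07. DKK4, ROBO1 and ASPRV1 were at 1.92, 1.82 and 1.65, and RLBP1 was at -1.53. Others were smaller there, with TNC at 0.89, EREG at 1.18, SOX2 at 0.10, AK5 at -0.88, SUMF1 at -0.05 and DKK3 at -0.14. IDH1 was at 0.16.

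TPRG1L, whose product is known from synaptic vesicles, was the clearest difference apart from the targets. Against the controls it was at 0.01 in the MAP2K2 knockdown, with no call, and at -1.50 in the MAP2K1 knockdown. Its level was 8.42, 8.75 and 8.96 (lowest, median and highest of 6) in the MAP2K2 knockdown and 6.80, 7.28 and 7.38 in the MAP2K1 knockdown, so the groups did not overlap (1.52 ± 0.13, limma adjusted p = 1.6e-07). SERPINE2, a protease inhibitor of the matrix, was at 0.02 in the MAP2K2 knockdown and -1.65 in the MAP2K1 knockdown (difference 1.67 ± 0.30, limma adjusted p = 0.0018). The histone genes H4C8, H2BC12L and H2BC9 were 1.97, 1.61 and 1.43 higher, and in the MAP2K2 knockdown they stood out on replicate 2 (3.65, 3.14 and 3.00). Their difference between the knockdowns was 1.33 to 2.08 in round 1, 2.38 to 2.95 in round 2 and 1.22 to 1.69 in round 3. Against the controls none of these 3 passed in the MAP2K2 knockdown. In the MAP2K1 knockdown all 3 fell (-1.20, -0.97 and -0.84, limma adjusted p = 0.0050, 0.014 and 0.019).

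Genes that rose with loss of MAP2K1 and less or not at all with loss of MAP2K2 included GJA1, the gap junction protein connexin 43 (2.40 against 0.55, difference -1.85 ± 0.34, limma adjusted p = 0.0027). BMP2, a bone morphogenetic protein, was at 2.78 against 1.28 (difference -1.50 ± 0.36), and DACH1 at 2.88 against 1.38 (difference -1.50 ± 0.21, limma adjusted p = 2.3e-04). Without the replicate 1 array the change of GJA1 in the MAP2K2 knockdown was 0.24 and passed the test (limma adjusted p = 0.027), which 0.55 did not (limma adjusted p = 0.068). For GJA1, BMP2 and GALNT3 the difference between the knockdowns was -0.03, -0.01 and -0.06 in round 2, so it rests on rounds 1 and 3. INHBE, an inhibin subunit, was at 1.54 against -0.18, and GALNT3, a mucin-type glycosyltransferase, at 1.11 against -0.59. The latter passed the test without the replicate 1 array (-0.74, limma adjusted p = 0.014). Of 23 amino acid response genes, 9 were lower in the MAP2K2 knockdown and none higher, among them VLDLR (-0.95 ± 0.13) and PSAT1 (-0.78 ± 0.13). Of 18 Wnt target genes, 4 were lower, led by CCND2 (-1.33 ± 0.23), and none higher. Of 30 mesenchymal regulators and matrix genes, 5 were higher, among them VIM (0.97 ± 0.20) and ZEB1 (0.75 ± 0.17), and 4 lower. Of 28 ERK output genes 1 was higher and 1 lower, and of 17 ERK feedback inhibitors 1 was higher.

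The MAP2K2 knockdown in SW620 asks whether the line changes the response. MAP2K2 itself fell by 1.85 there, and the difference between the lines was -0.04 ± 0.20 (limma adjusted p = 0.91). Many other genes differed: 2041 genes had a more positive change in SW480 (10.3%) and 1795 a more negative one (9.08%), or 2214 (11.2%) and 2049 (10.4%) without the replicate 1 knockdown array of SW480. The ERK output genes had a median change of -0.62 in SW620 and 0.04 in SW480. Of 28, 16 differed with the higher change in SW480 and 1 with the lower. HBEGF, an EGF receptor ligand, was at 0.12 in SW480 and -1.05 in SW620 (difference 1.18 ± 0.10, limma adjusted p = 3.5e-10), EMP1 at 0.09 and -1.90, and CXCL8, a chemokine, at 0.35 (0.0086 with 17 arrays, with no call in either fit) and -1.30. Of 17 ERK feedback inhibitors, 6 differed, all with the higher change in SW480, led by ERRFI1 (0.08 and -2.11, difference 2.19 ± 0.23, limma adjusted p = 8.1e-08). DUSP4 was at 0.92 and -0.37.

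The amino acid response genes differed in 20 of 23 cases with the higher change in SW480 and in 1 with the lower, against a median of -1.07 in SW620. ASNS, asparagine synthetase, was at 9.21, 10.74 and 10.84 (lowest, median and highest) in the SW480 knockdown. In SW620 it was at 8.26, 9.66 and 10.06 in the knockdown and at 10.65, 12.41 and 12.47 with the empty vector. The difference between the changes was 2.67 ± 0.26 (limma adjusted p = 2.6e-08), with 0.19 in SW480 and -2.48 in SW620. In SW480 its change was -0.97, -0.84 and 0.74 in rounds 1, 2 and 3, and 0.42 with 17 arrays, with no call in either fit. IGFBP1, an insulin-like growth factor binding protein, was at 0.52 and -3.03, INHBE at -0.18 and -3.75, and DDIT4, an inhibitor of mTORC1, at -0.31 and -3.61. The levels of IGFBP1 and INHBE were low in the SW480 controls (medians of 4.09 to 4.28), where such a fall could not show. Of the 28 G2/M genes, 24 had the lower change in SW480 and none the higher, with a median of 0.92 in SW620. KIF20A, a mitotic kinesin, was at 0.01 and 1.48. Without the replicate 1 array, which was at -0.98, KIF20A rose by 0.21 in SW480 (limma adjusted p = 0.023). THBS1, which encodes a thrombospondin of the matrix, was at -0.10 and 2.00. Of 29 epithelial junction and differentiation genes, 11 had the higher change in SW480 and none the lower, among them CLDN1 (0.05 and -1.18), TFF3 (0.46 and -1.28) and KLF5 (0.59 and -0.98). With 17 arrays TFF3 was at 0.24 and KLF5 at 0.33 (limma adjusted p = 0.038 and 0.0017) in SW480. FASN was at -0.34 in SW480, a fall with 18 arrays but not with 17 (limma adjusted p = 0.039 and 0.054), and at 0.56 in SW620, and 8 of 19 lipid synthesis genes had the lower change in SW480.

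**Figure D5:**
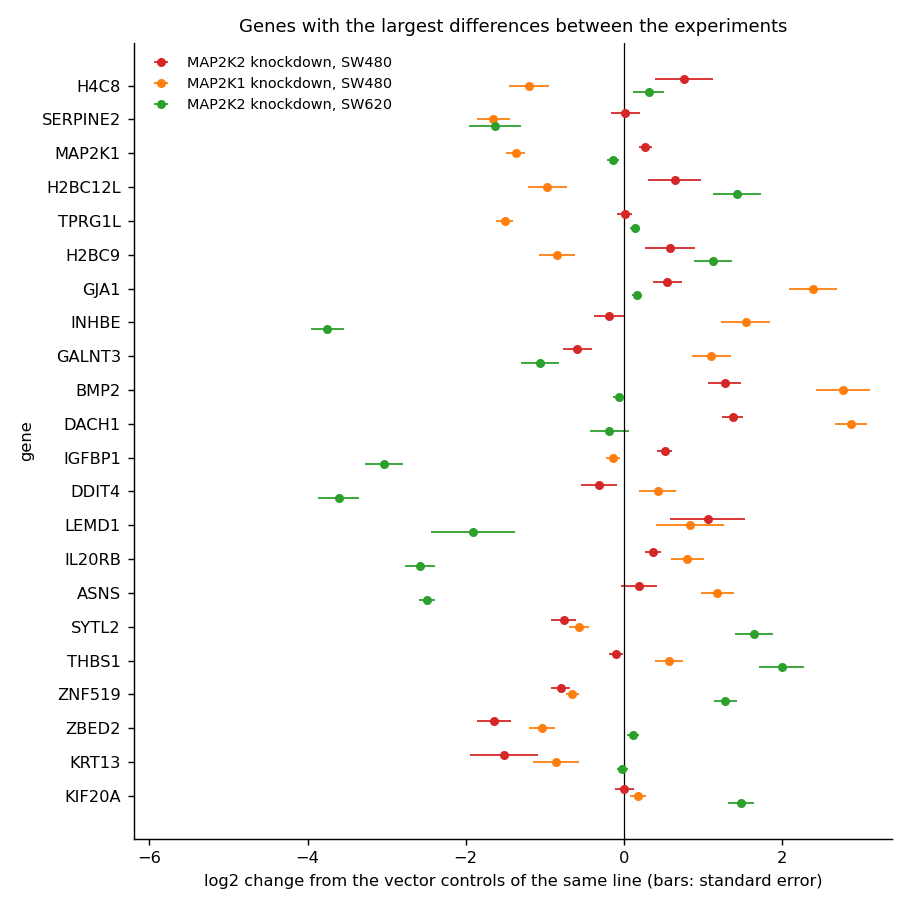
Log2 change from the vector controls of the same line (x axis, points are limma estimates and bars standard errors, n = 6 arrays per knockdown) for the genes with the largest differences (y axis), in the MAP2K2 knockdown of SW480 (red), the MAP2K1 knockdown of SW480 (orange) and the MAP2K2 knockdown of SW620 (green). INHBE, IGFBP1, DDIT4 and ASNS lie between -0.31 and 0.52 in the first and between -3.75 and -2.48 in the last. The SW480 controls of INHBE and IGFBP1 were low (medians of 4.09 to 4.28), where such a fall could not show.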

How the data were processed

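Expression was deposited as log2 values, which the authors computed with RMA, per the submitters' processing notes. Its version, and whether all arrays were normalised together, are not given in the sources used here. RMA usually equalises the distribution over arrays, so a global shift of RNA would not show. The values were used without further normalisation. Of 54675 probe sets, 41097 carry the symbol of 1 gene and were used, 1801 carry several symbols and 11777 carry no symbol. Symbols of 41043 were updated through the RefSeq gene table and 54 were kept. The brightest probe set stood for each of 19775 genes (10523 had more than 1), with no filter on dim genes.

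Group effects with a term for round were fitted with lmFit and eBayes of limma 3.58.1 under R 4.3.3, using the trend and robust options, two-sided, with a threshold of 0.05. The knockdown was set against the mean of both control groups. The comparison between the lines used a term for round within line. Effects of alternatives are in the closing section. The number of arrays limits the precision. The fits were tested on simulated data, and no 2 arrays held identical values.

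Named are MAP2K2 and MAP2K1, the 12 largest rises and 12 largest falls past the threshold with 18 and with 17 arrays and of one sign in all 3 rounds, up to 6 members of each list with the smallest p in a comparison, and the 6 largest differences each way. Open reading frames, unnamed loci and antisense genes were passed over. The fits with 18 and with 17 arrays were each taken as a comparison, so more than 6 members of a list can be named, a reading chosen after the values were seen. The experiment, lists and rule were chosen with earlier results of these data known.

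Whether equal replicate numbers pair arrays was checked on deviations from the group means. Over all 6 numbers the correlations of 18 pairs were 0.59 to 0.96, and these contain the rounds. Within replicates 3 to 6 those of 12 pairs were -0.09 to 0.12, and 1 was over 0.1. The round, not the number, was therefore used. Figures used Python 3.11.15, matplotlib 3.10.9, numpy 2.4.6 and pandas 2.3.3, and tables the data.table package (1.17.8).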

Additional observations from a re-analysis of the deposited data

Results flagged for a closer look

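In 33 of 89 genes the highest or lowest of the 6 knockdown arrays stood apart from the others by Dixon's criterion. Chance alone meets it in about 1 of 20 groups where all values vary alike. Here most of the arrays share a round, the others have rounds of their own, and the genes were picked by their values. The count of 33 therefore cannot be read against that rate. The outlying array was that of replicate 1, which held SW620 genes, in 24 genes, and that of replicate 2 in 9. Values are log2 differences from the controls of the same round.

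On replicate 1 these were, upward, CLRN3 (5.72), GPX2 (5.55), EREG (4.46), ROBO1 (4.31), DKK4 (3.45), ASPRV1 (3.00), SOX2 (2.50) and DACH1 (2.00), then NR4A2 (1.73), MAP2K6 (1.67), HK2 (1.10), MXD1 (0.99), MAP2K1 (0.91) and MAPK6 (0.85). Downward they were HPGD (-3.40), the target MAP2K2 (-2.99), SUMF1 (-2.38), KANK4 (-2.06), BOK (-2.06), ADM (-1.13), EPHB4 (-0.78), ERBB2 (-0.70), UQCRC1 (-0.64) and CCNE2 (-0.33).

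On replicate 2 the array was nearer to its controls than the others for AK5 (-0.38), FABP3 (-0.0728), BCL2L11 (0.19), EPHA2 (0.0568) and ESRP1 (-0.39). It was on the other side of them for VLDLR (0.0363), COL4A1 (-0.13) and SERPINI1 (-0.34), and farther from them for MXI1 (-1.07).

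The change differed between SW480 and SW620, by limma's test of the difference itself, most for INHBE (3.57), IGFBP1 (3.54), DDIT4 (3.29), LEMD1 (2.97), IL20RB (2.95) and ASNS (2.67), which were higher in SW480. It was lower in SW480 for SYTL2 (-2.40), THBS1 (-2.09), ZNF519 (-2.08), ZBED2 (-1.76), KRT13 (-1.49) and KIF20A (-1.47). That of KRT13 was -0.78 without the replicate 1 knockdown array, which was at -5.08. With empty vector and non-target hairpin, the SW480 medians were low for INHBE (4.09 and 4.25), IGFBP1 (4.28 and 4.09) and IL20RB (4.41 and 4.21). A fall as large as that in SW620 could not show there. In SW620 they were low for ZBED2 (3.50 and 3.59) and KRT13 (3.79 and 3.79). For LEMD1 the change was 0.36, -2.25 and 2.06 in SW480 and 2.76, -1.77 and -3.11 in SW620 in rounds 1, 2 and 3. Only in round 3 was it higher in SW480.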

How the results depend on the processing

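MAP2K2 fell under every alternative run. Its change was -1.11 averaged over its probe sets, -2.02 with round 3 in pairs and -1.95 to -1.67 over the arrays left out. The counts of genes were far less stable. Higher and lower genes numbered 10 and 10 with no term for round, 410 and 612 with all arrays of the series in the model, 2 and 4 with round 3 averaged in pairs, and 3507 and 4187 with replicates 3 to 6 only. With the empty vector alone 591 were higher and 916 lower, and with the non-target hairpin alone 731 and 561, so the balance of rises and falls turned with the control. Leaving out single arrays gave 789 to 1618 higher and 898 to 1934 lower. Alternatives chosen after seeing the data gave 1656 and 1931 with replicates 2 to 6, and 19 and 19 with pairs averaged and no replicate 1 knockdown array. Against the MAP2K1 knockdown the counts were 4 and 15 with no term for round, 203 and 295 with all arrays, 19 and 8 in pairs, and 2417 and 2742 with replicates 3 to 6 only. They were 618 and 764 without both replicate 1 arrays, and 300 to 618 and 381 to 764 over the arrays left out. Between the lines they were 167 and 62 with no term for round, 1169 and 895 with all arrays, 1322 and 635 with the non-target hairpin alone, 282 and 148 in pairs, and 5285 and 5068 with replicates 3 to 6 only. There, arrays left out gave 1770 to 2506 and 1517 to 2583. The cause was not tested.

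With the replicate number as a block in place of the round, a pairing that the arrays did not bear out within replicates 3 to 6, 638 genes were higher and 734 lower, and 255 and 333 against the MAP2K1 knockdown. Of 88 single genes, 68 kept their call under the block, 14 with no term for round, 57 with the empty vector alone, 61 with the non-target hairpin alone, 8 in pairs and 82 with replicates 3 to 6 only. The difference of MAP2K2 between the lines, not called, changed sign with the empty vector alone (0.0292), the mean of all probe sets (0.0557), pairs averaged (0.0126) and no replicate 1 knockdown array (0.18), and ADM did with the empty vector alone (-0.0336). Single knockdown arrays left out moved the former from -0.0973 to 0.18.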

Other observations

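The 17 genes that passed 2-fold in opposite directions in rounds 2 and 3 were picked by their values, and the 8 named here were chosen after those were seen. LEMD1, a cancer-testis antigen, was at -2.25 in round 2 and 2.06 in round 3, and EHF, an epithelial ETS factor, at -3.02 and 1.09. DEFA5, a Paneth cell defensin, was at -1.10 and 2.03, CEACAM1, an adhesion molecule, at -1.22 and 1.08, and LAPTM5, a lysosomal protein of blood cells, at -1.01 and 1.48. TSPAN8, a tetraspanin of the gut epithelium, was at 1.52 and -1.17, NTRK2, a neurotrophin receptor, at 1.17 and -1.06, and GULP1, an engulfment adaptor, at 1.43 and -1.16. These values carry no test between the rounds, since round 2 holds 1 knockdown array.

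Of the 2268 genes called with 18 arrays, 1625 (71.6%) changed with the sign of the difference between the vector controls of SW620 and SW480. Among the 412 called only with the replicate 1 knockdown array this share was 76.9%, and among the 889 called only without it 35.8%. The fit with 18 arrays includes that array with its SW620 genes, which favours this sign. The share over all genes was not taken, so whether the called genes depart from it was not tested.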
